A study of Mus musculus with 6 samples.

Results

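The Ly6 and uPAR surface protein family was followed in stem cells sorted from squamous cell carcinomas of mouse skin. The genes are 9 named members, Ly6d, Ly6a, Ly6e, Ly6c1, Ly6k, Ly6g6c, Lypd3, Slurp1 and Plaur. A gene was measured where a feature of the array carried that single symbol in the platform annotation, which held for 8 of the 9, out of 30142 genes in all. No feature carries the symbol Ly6a in that annotation, so no value is given for it.

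The tumours came from Sfrp1-/- mice (Sfrp1_KO), which lack the secreted Wnt antagonist Sfrp1, and from wild-type mice (WT). Both genotypes had received the mutagen DMBA on 3 days, at postnatal days 23, 25 and 27, and then the tumour promoter TPA 2 times a week over 30 to 40 weeks. The flow cytometry gate kept lineage-negative cells that carried Epcam, α6 integrin and CD34. RNA from 3 Sfrp1_KO and 3 WT samples was hybridised to 1 Affymetrix MTA 1.0 array each, a whole-transcript array that reads probes along each gene. The labels give neither strain, sex and tumour number nor the deleted part of Sfrp1. Nor do they tie a sample to an animal, so the p-values here reflect sample-to-sample spread that may be technical.

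Proteins of the family share a small disulphide-rich fold, the LU or three-finger domain. Most are held at the outer cell membrane by a glycolipid (GPI) anchor, and a few, such as Slurp1, are secreted. Plaur is the receptor of urokinase and places plasminogen activation at the cell surface. In mouse, Ly6d and Lypd3 belong to stratified epithelium, while Ly6c1 and Ly6e are best known from blood and immune cells, in which interferon induces them.

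Values are deposited log2 signals, and a difference is Sfrp1_KO minus WT in these units. Values in the table went up to 19.93, more than a 16-bit scanner can give, and a unit need not be a doubling of RNA. The background level of an array is the highest of its 23 antigenomic background probe sets, which lay between 4.82 and 5.10. Array medians lay between 4.32 and 4.46. Genotypes were compared with limma over all 30142 genes, called at a Benjamini-Hochberg adjusted p under 0.05. Of the sort markers, Epcam averaged 5.03 ± 0.17 in Sfrp1_KO, with 1 of 3 arrays above background, and 7.59 ± 1.03 in WT (SD, n = 3 each; limma adjusted p = 0.0455). Itga6, which encodes α6 integrin, averaged 7.62 ± 0.18 in Sfrp1_KO and 9.51 ± 0.64 in WT, above background on all arrays (limma adjusted p = 0.0292). Cd34 averaged 10.99 ± 0.71 in Sfrp1_KO and 9.42 ± 0.15 in WT (limma adjusted p = 0.0714). Sfrp1 itself averaged 5.12 ± 0.03 in Sfrp1_KO and 5.75 ± 0.30 in WT (limma adjusted p = 0.0969).

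Upstream sequence from RefSeq (build GRCm38.p6) was found for 4 of the 9 members, Ly6c1, Ly6g6c, Lypd3 and Plaur. The 250 bases before the transcript start are shown for Ly6c1 and its paralog Ly6c2, at the more upstream start of each, because both genes fell and their features could read each other's transcripts. They are also shown for Lypd3 and Plaur, members on chromosome 7 whose differences had opposite signs. Capitals mark the longest run shared by the Ly6c pair, 20 bases, and in Plaur a match to the AP-1 motif.
Ly6c1 (chr15:75048838-75049087, minus strand): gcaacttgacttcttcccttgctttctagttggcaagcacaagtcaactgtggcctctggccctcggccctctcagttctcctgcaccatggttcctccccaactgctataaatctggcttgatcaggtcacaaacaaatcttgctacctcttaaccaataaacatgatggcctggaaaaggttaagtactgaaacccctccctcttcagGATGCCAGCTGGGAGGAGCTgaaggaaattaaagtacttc
Ly6c2 (chr15:75111972-75112221, minus strand): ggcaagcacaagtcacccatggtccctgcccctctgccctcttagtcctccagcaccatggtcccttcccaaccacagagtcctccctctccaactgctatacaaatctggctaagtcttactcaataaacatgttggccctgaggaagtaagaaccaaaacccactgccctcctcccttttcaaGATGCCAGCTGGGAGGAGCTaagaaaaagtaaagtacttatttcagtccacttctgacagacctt
Lypd3 (chr7:24636320-24636569, plus strand): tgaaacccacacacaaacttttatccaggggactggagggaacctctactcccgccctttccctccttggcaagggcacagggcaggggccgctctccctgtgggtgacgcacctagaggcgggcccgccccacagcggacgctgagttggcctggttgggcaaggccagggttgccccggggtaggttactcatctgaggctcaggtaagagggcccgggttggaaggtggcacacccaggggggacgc
Plaur (chr7:24462233-24462482, plus strand): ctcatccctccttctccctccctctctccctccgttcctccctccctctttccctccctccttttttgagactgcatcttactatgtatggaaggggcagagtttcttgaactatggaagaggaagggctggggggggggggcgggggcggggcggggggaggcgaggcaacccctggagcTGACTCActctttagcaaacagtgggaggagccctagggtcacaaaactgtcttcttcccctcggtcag

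The Ly6c1 and Ly6c2 windows aligned with 171 identical bases in 290 columns, or 59.0%. Both strands of 7 windows of these genes, counting the alternative starts of the Ly6c pair, were searched for 2 motifs, with no overlap between the motifs in these windows. AP-1, the factor that TPA activates, was searched as TGANTCA and was found in Plaur alone, 69 bases before the start. That motif stood in 6.75% of all 32851 windows. The TATA box, searched as TATAAA, began 30 bases before the start of Ly6g6c and 143 bases before that of Ly6c1, and stood in 12.4% of all windows. A match is a run of letters and not a measured binding site.

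Of the 8 measured members 3 fell in Sfrp1_KO, Ly6d, Lypd3 and Ly6c1, and none rose. Over all genes 1.45% were called lower, 1.83% higher and 3.28% in either direction. The median difference was -0.62 over the 8 members and -0.01 over all genes. Ly6g6c, Ly6k, Slurp1, Ly6e and Plaur did not pass the test. In 5 members, Ly6d, Lypd3, Ly6c1, Ly6g6c and Ly6k, every Sfrp1_KO array lay below every WT array, against 10.8% of all genes with that order, 9.1% with the opposite one and 19.9% with either. At an unadjusted p under 0.05, 5 members were lower and 0 higher, against 7.54% of all genes lower and 6.84% higher. Slurp1 and Ly6k were at or under background on all 6 arrays, so their differences describe no measured level.

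**Figure D1:**
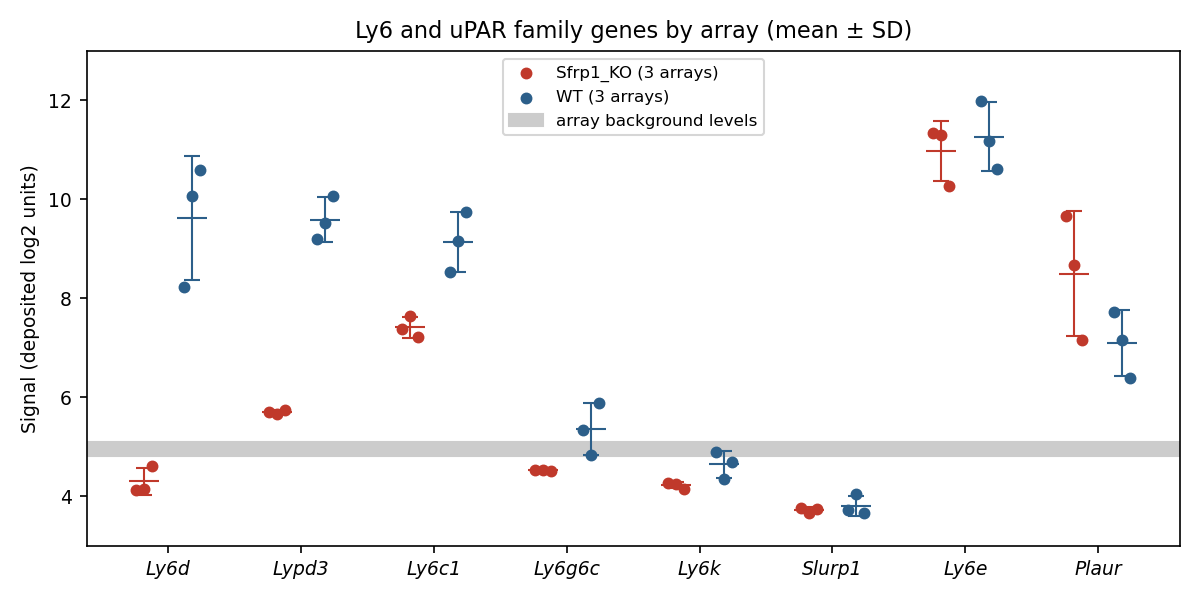
Signal in deposited log2 units (vertical axis) of the 8 measured members, with 3 Sfrp1_KO arrays (red) left of 3 WT arrays (blue); bars are mean ± SD, points are arrays, and the grey band spans the array background levels of 4.82 to 5.10. Ly6d lay under the band in Sfrp1_KO and at 8.22 to 10.59 in WT, while Ly6e and Plaur overlapped between genotypes.

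Ly6d, a GPI-anchored protein of keratinocytes and B-cell progenitors, had 4.13, 4.14 and 4.62 in the Sfrp1_KO arrays, against 8.22, 10.07 and 10.59 in the WT arrays. All Sfrp1_KO values were under background, and the WT arrays were spread over more than 2 units with replicate 1 lowest. Ly6d therefore fell by at least 4.56 (measured means 4.30 ± 0.28 in Sfrp1_KO and 9.63 ± 1.25 in WT, SD, n = 3 each; limma adjusted p = 0.00879 for the difference of -5.33). The call was lost without Sfrp1_KO replicate 2 (limma adjusted p = 0.0530), at a difference of -5.25.

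Lypd3, also called C4.4A, is the structural relative of the urokinase receptor on suprabasal keratinocytes. It had 5.70, 5.66 and 5.73 in the Sfrp1_KO arrays, against 9.19, 9.51 and 10.07 in the WT arrays. The Sfrp1_KO arrays were within 0.1 of each other and a little above background, far below the lowest WT array. Lypd3 fell by 3.89 (SE 0.21, 95% interval -4.41 to -3.38, limma adjusted p = 0.00125), and it was the only member called without any 1 array, whichever was left out (adjusted p up to 0.0119).

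Ly6c1, a surface antigen of monocytes, T cells and endothelium in mouse, had 7.38, 7.64 and 7.22 in the Sfrp1_KO arrays. In the WT arrays it had 8.52, 9.16 and 9.74. It was above background on every array of both genotypes, and the groups did not overlap. Ly6c1 fell by 1.73 (SE 0.30, 95% interval -2.45 to -1.001, limma adjusted p = 0.0365). The call was lost without any 1 of the Sfrp1_KO arrays and without WT replicate 2 or 3, at differences of -1.84 to -1.43 (limma adjusted p = 0.0537 to 0.132).

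Ly6c2, a near copy of Ly6c1 on monocytes and not itself a listed member, had 9.19, 9.14 and 7.79 in Sfrp1_KO, against 11.02, 11.18 and 12.38 in WT. It fell by 2.82 (SE 0.50, limma adjusted p = 0.0383). That call was lost without each of the 6 arrays in turn (limma adjusted p = 0.0613 to 0.112). Transcripts of such paralogs can bind each other's probes, so the Ly6c1 and Ly6c2 values cannot be told apart with certainty.

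Ly6g6c, whose gene lies in the MHC class III region of chromosome 17, had 4.53, 4.53 and 4.52 in the Sfrp1_KO arrays, all under background. In WT it had 5.34, 4.84 and 5.88, with 2 of 3 arrays above background. The difference did not pass (measured means 4.53 ± 0.01 in Sfrp1_KO and 5.35 ± 0.52 in WT, SD, n = 3 each; at least 0.28 lower, limma adjusted p = 0.176). It passed without WT replicate 2 (-1.08, limma adjusted p = 0.0479).

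Ly6k, known from testis and from human squamous tumours, had 4.26, 4.25 and 4.15 in Sfrp1_KO, against 4.89, 4.35 and 4.70 in WT (limma adjusted p = 0.236). Slurp1, a secreted member that binds nicotinic acetylcholine receptors and is mutated in the human skin disease mal de Meleda, had 3.77, 3.66 and 3.74 in Sfrp1_KO, against 3.73, 4.04 and 3.66 in WT (limma adjusted p = 0.868). Neither gene stood above background on any array.

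Ly6e, an interferon-induced surface protein that restricts entry of some viruses, had 11.33, 11.31 and 10.28 in the Sfrp1_KO arrays, against 11.99, 11.19 and 10.60 in the WT arrays. The genotypes overlapped, and all 6 arrays were far above background. The difference was -0.29 (SE 0.42, 95% interval -1.31 to 0.73, limma adjusted p = 0.881), and its sign turned without Sfrp1_KO replicate 3 (0.06), without WT replicate 1 (0.08) and with array weights (0.05).

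Plaur, the urokinase receptor, had 9.66, 8.68 and 7.16 in the Sfrp1_KO arrays, against 7.73, 7.16 and 6.40 in the WT arrays. Sfrp1_KO replicates 1 and 2 lay above every WT array, while replicate 3 lay within the WT range. At each replicate number the Sfrp1_KO value was above the WT value. The difference of 1.40 (SE 0.65, 95% interval -0.17 to 2.98) did not pass (limma adjusted p = 0.416). Nor did it under any of the 14 alternatives, at 0.82 without Sfrp1_KO replicate 1 to 2.08 without Sfrp1_KO replicate 3. The lowest of their p-values came with the replicate number as a block (limma adjusted p = 0.0898).

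Macrophages are among the cells that express Plaur. The mean over 11 leukocyte markers was 5.27, 5.001 and 4.62 in Sfrp1_KO, against 4.29, 4.36 and 4.35 in WT. None of the 11 passed the test (7 higher at an unadjusted limma p under 0.05, where 6.84% of all genes were higher). Of the 11, 6 (Ptprc, Cd3e, Itgam, Adgre1, Csf1r and Fcer1g) were at or under background on all 6 arrays, and Itgam and Csf1r were among the 7. Lyz2 had 7.94, 6.84 and 5.96 in Sfrp1_KO, against 5.11, 4.69 and 5.02 in WT. C1qa, C1qb, Laptm5 and Tyrobp were above background on 2 of 3 Sfrp1_KO arrays and on 0 WT arrays. Plaur and this mean had the same order over the Sfrp1_KO arrays, highest in replicate 1 and lowest in replicate 3, but not over the WT arrays, where replicate 1 had the highest Plaur value and the lowest mean. The part of these cells in the Plaur values was not tested. In bulk samples, fewer cells of a type and less RNA per cell cannot be told apart.

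For Ly6c1, the mean over 8 endothelial markers ran from 4.44 to 4.67 in Sfrp1_KO and from 4.27 to 4.83 in WT, and 5 of the 8 (Tek, Emcn, Vwf, Eng and Cldn5) were at or under background on all arrays. The endothelial mean was highest in WT replicate 3, as was Ly6c1 among the WT arrays. Among the Sfrp1_KO arrays the orders differed, with the endothelial mean highest in replicate 1 (4.67) and Ly6c1 in replicate 2 (7.64). Of the 8 endothelial markers 7 had a difference below 0, as had 16335 of all 30142 genes. The median over the 8 was -0.14, and none was called in either direction. The other gene, Cdh5, an endothelial cadherin, had 7.15, 6.69 and 4.88 in Sfrp1_KO, against 4.22, 4.36 and 5.16 in WT, and did not pass (limma adjusted p = 0.264). The fibroblast gene Dcn had 10.18, 11.16 and 10.11 in Sfrp1_KO, against 6.54, 6.58 and 10.56 in WT, so WT replicate 3 stood apart from the other WT arrays. The part of these cells in the Ly6c1 values was not tested. The mean over 8 neutrophil and monocyte markers ran from 4.09 to 4.49 in Sfrp1_KO and from 4.70 to 4.93 in WT. Of these, Mpo, Elane, Ccr2, Csf3r and Camp were at or under background on all arrays. None of the 8 passed by limma, with 3 lower at an unadjusted p under 0.05, where 7.54% of all genes were lower. The list includes S100a8 and S100a9, which keratinocytes of inflamed skin also express.

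**Figure D2:**
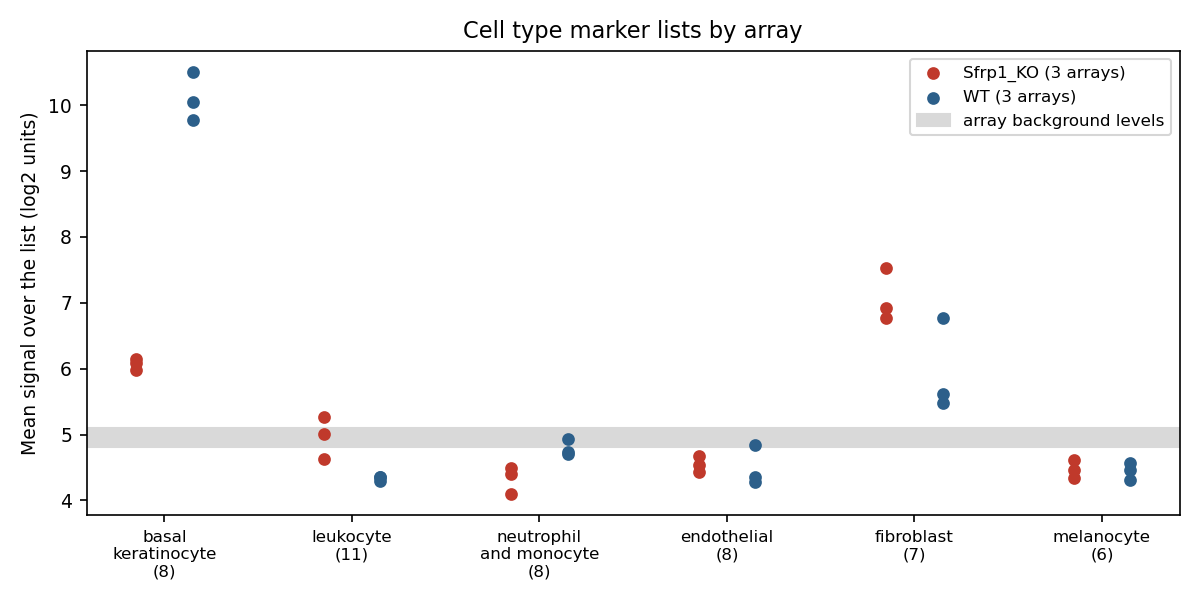
Mean signal in deposited log2 units (vertical axis) over each list of cell type markers, with the number of measured genes in brackets, for 3 Sfrp1_KO arrays (red, left) and 3 WT arrays (blue, right) beside the band of array background levels. Basal keratinocyte markers lay at 5.98 to 6.14 in Sfrp1_KO and at 9.78 to 10.51 in WT, and leukocyte markers at 4.62 to 5.27 in Sfrp1_KO and 4.29 to 4.36 in WT.

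Ly6d and Lypd3 are expressed by keratinocytes, whose basal markers were compared in the same arrays. The mean over 8 basal keratinocyte markers ran from 5.98 to 6.14 in Sfrp1_KO and from 9.78 to 10.51 in WT, with 6 of the 8 called lower, none higher, and Krt15 and Itgb4 not passing. Krt5, the basal keratin, averaged 6.64 ± 0.30 in Sfrp1_KO and 17.39 ± 0.50 in WT (SD, n = 3 each; limma adjusted p = 0.000127). Fibroblast markers averaged over 7 genes ran from 6.76 to 7.53 in Sfrp1_KO and from 5.47 to 6.77 in WT. Of the 7, 2 were called higher and none lower, while Col1a1 (-0.45) and Lum (-0.59) had differences below 0. Melanocyte markers were at or under background for 5 of 6 genes, all but Mitf. The part of these cell types in the differences of Ly6d and Lypd3 was not tested.

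Suprabasal and cornifying genes are the usual company of Lypd3 and Slurp1 in the epidermis. Of 18 measured, 5 fell, none rose and 13 did not pass, with a median difference of -1.90. Krt2, Lor, Flg and Sprr3 were at or under background on all arrays. Calml3, a calmodulin-like protein of keratinocytes, fell by at least 2.61. Dmkn, a secreted epidermal protein, fell by 2.73 (SE 0.46), with 1 of 3 Sfrp1_KO arrays above background. The desmosomal cadherin gene Dsg1a fell by at least 1.86, Dsc1 by at least 0.31 and Sprr1b, of the cornified envelope, by at least 0.65. The limma adjusted p was lowest for Sprr1b (0.00183) and highest for Dsc1 (0.0448). Sprr1b has near-identical relatives whose probes can share signal. Of the 5, Sprr1b alone was called without Sfrp1_KO replicate 1, 2 or 3, and 8 genes of the list were called lower without WT replicate 1.

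The 3 genes whose centred profile over the 6 arrays lay nearest to that of Ly6d were Nectin1, Dsp and Dsg3, with root mean square differences of 0.59, 0.65 and 0.68. Nectin1, an adhesion protein of adherens junctions, averaged 5.89 ± 0.29 in Sfrp1_KO and 10.58 ± 0.66 in WT (SD, n = 3 each). Dsp, the desmosomal plaque protein desmoplakin, averaged 5.12 ± 0.05 in Sfrp1_KO and 10.96 ± 0.57 in WT. Dsg3, a desmosomal cadherin, averaged 5.82 ± 0.26 in Sfrp1_KO and 11.62 ± 1.14 in WT. The 6 points share the 2 genotypes, so the likeness is a description.

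Of 33 measured genes of the wider family, 1 fell, Ly6c2, and none rose, with a median difference of -0.09. In total 29 of the 41 family genes, members included, were at or under background on every array.

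Pinlyp, an inhibitor of phospholipase A2 encoded near Plaur, had 5.16, 5.30 and 5.53 in Sfrp1_KO, against 5.62, 6.33 and 7.71 in WT, and did not pass (difference -1.22, SE 0.50, limma adjusted p = 0.335). Cd59a, a GPI-anchored inhibitor of the complement attack complex, had 4.81, 4.67 and 4.74 in Sfrp1_KO, all under background, against 5.67, 5.15 and 5.39 in WT. It lay at least 0.33 lower and did not pass (measured means 4.74 and 5.40, limma adjusted p = 0.0657), but did with dim genes left out (limma adjusted p = 0.0483), with array weights (0.0472), with trend and robust options (0.0485) and without WT replicate 2 (0.0425). The filter on dim genes kept those above background on at least 3 arrays, which Cd59a met through its WT arrays alone.

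Lypd6b had 4.73, 4.59 and 4.68 in Sfrp1_KO and 4.88, 5.58 and 5.35 in WT (limma adjusted p = 0.166), and passed without WT replicate 1 (-0.80, limma adjusted p = 0.0295). Ly6i, a relative of Ly6c1, averaged 5.35 ± 0.11 in Sfrp1_KO and 5.56 ± 0.20 in WT (SD, n = 3 each; limma adjusted p = 0.560). Ly6f and Gpihbp1, the carrier of lipoprotein lipase on capillaries, were at or under background on all arrays. Psca, a prostate and epithelial antigen, was above background on 1 array only, WT replicate 1 at 5.57, with 3.90 to 4.02 in Sfrp1_KO and 4.23 and 4.01 in the other WT arrays.

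**Figure D3:**
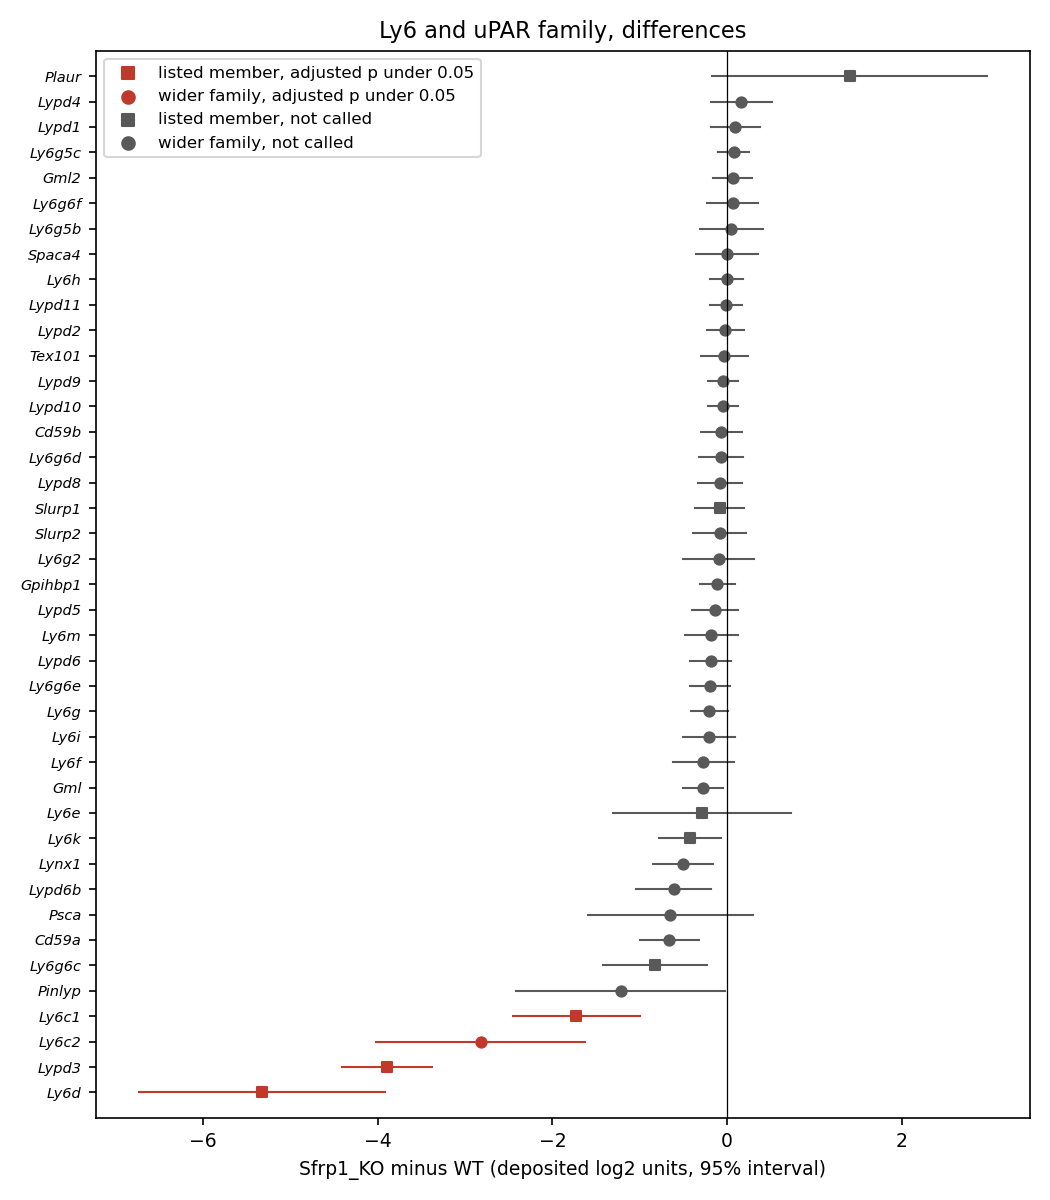
Horizontal axis, Sfrp1_KO minus WT difference in log2 units as deposited and its 95% interval, for the 8 members (squares) and 33 further family genes (circles); red marks adjusted p under 0.05. Ly6d, Lypd3, Ly6c2 and Ly6c1 stand apart at -5.33 to -1.73, and Plaur has the highest value, 1.40, with an interval that includes 0.

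Most measured family genes lie on 3 mouse chromosomes, and they were counted over each whole chromosome. On chromosome 15, 19 measured family genes include 3 called lower, Ly6d, Ly6c1 and Ly6c2, and none called higher. On chromosome 7, 9 measured family genes include 1 called lower, Lypd3. On chromosome 17 none of 6 was called. In the stretch of chromosome 15 from Psca to Ly6h, 7 measured genes that stand in neither list, Ly6a2 and Ly6g6g among them, were not called in either direction. Ly6g6g averaged 4.39 ± 0.18 in Sfrp1_KO and 4.96 ± 0.18 in WT (SD, n = 3 each; limma adjusted p = 0.0934).

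Partners of Plaur in plasminogen activation went in both directions. Of 16 measured genes 4 rose, 2 fell and 10 did not pass, with a median difference of 0.05. Plau, which encodes urokinase, the ligand of Plaur, had 7.24, 7.50 and 6.57 in Sfrp1_KO, against 7.99, 7.79 and 5.71 in WT. Its difference was -0.06 (SE 0.62, 95% interval -1.54 to 1.43, limma adjusted p = 0.991), and the sign depended on the array left out.

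Plat, the tissue plasminogen activator, had 7.97, 8.05 and 7.60 in Sfrp1_KO, against 5.90, 6.07 and 6.22 in WT, and rose by 1.81 (SE 0.15, limma adjusted p = 0.00378). Mrc2, the collagen receptor that associates with Plaur, rose by 1.64 (SE 0.18, limma adjusted p = 0.00846). Lrp1, which clears the complex of urokinase, inhibitor and receptor from the surface, rose by 1.86 (SE 0.30, limma adjusted p = 0.0274). Itgb3, the β3 chain of the vitronectin receptor, was under background on all WT arrays and rose by at least 0.60 (limma adjusted p = 0.00763). Lrp1 was not called in 5 of the 6 fits that left out 1 array, all but that without Sfrp1_KO replicate 3 (limma adjusted p = 0.0640 to 0.106).

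Serpinb2, the plasminogen activator inhibitor of keratinocytes and macrophages, had 4.87, 5.03 and 4.92 in Sfrp1_KO, all under background. In WT it had 11.47, 7.995 and 8.97, with replicate 1 highest. Serpinb2 fell by at least 4.41 (limma adjusted p = 0.0409). Itga3, an integrin chain that binds Plaur and laminin, fell by 3.69 (SE 0.67, limma adjusted p = 0.0414). Neither was called without any 1 of the Sfrp1_KO arrays (limma adjusted p = 0.117 to 0.161), and each lost its call without 1 WT array as well, Serpinb2 without replicate 3 (0.0958) and Itga3 without replicate 2 (0.104).

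Among 5 measured genes that encode proposed ligands of Lypd3, the laminin chain gene Lama3 fell by 1.91 (SE 0.36, limma adjusted p = 0.0480) and none rose. Lama3 stood above background on 1 of 3 Sfrp1_KO arrays, at 4.93, 4.90 and 5.05, against 7.71, 6.73 and 6.17 in WT. The other laminin-332 gene measured, Lamb3, averaged 4.94 in Sfrp1_KO and 6.83 in WT (limma adjusted p = 0.103). The integrin gene Itgb4 averaged 6.54 in Sfrp1_KO and 9.57 in WT (limma adjusted p = 0.0544). Agr2 and Agr3, secreted binding partners of human LYPD3, were at or under background on all arrays. Lama3 was not called without any 1 of the Sfrp1_KO arrays or without WT replicate 2 (limma adjusted p = 0.107 to 0.188).

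Of 16 nicotinic acetylcholine receptor subunits, only some of which are known as targets of Slurp1 and Lynx1, 1 rose, none fell and 14 were at or under background on all arrays. Chrna1, the α1 subunit of the muscle receptor, had 7.42, 7.50 and 7.35 in Sfrp1_KO, against 4.92, 4.81 and 4.71 in WT, all WT values under background. It rose by at least 2.46 (limma adjusted p = 0.000196) and was called without any 1 array. Chrna7, the subunit most linked with Slurp1, averaged 4.47 in Sfrp1_KO and 4.45 in WT (limma adjusted p = 0.974), under background.

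None of 26 measured genes of GPI anchor synthesis and attachment was called in either direction by limma, and 4 were lower and 0 higher at an unadjusted p under 0.05, where 7.54% of all genes were lower and 6.84% higher. The median difference was -0.16, with 20 of 26 below 0. The lowest p-values were those of Pgap1 and Pgap2, which remodel the anchor after its attachment. Pgap1 had 4.56, 4.63 and 4.80 in Sfrp1_KO, all under background, against 7.13, 7.11 and 5.64 in WT (at least 1.56 lower, limma adjusted p = 0.0604). It was called without WT replicate 3 (-2.46, limma adjusted p = 0.00158), with dim genes left out (0.0373), with array weights (0.0483) and with trend and robust options (0.0372). Pgap1 met the filter on dim genes through its WT arrays alone. Pgap2 lay at least 0.22 lower (limma adjusted p = 0.0625) and was called with array weights (0.0372) and after quantile normalization once more (0.0470).

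Interferon induces Ly6e and Ly6c1 in blood cells, so other genes of that response were listed. Of 26 measured 16 rose, none fell and 10 did not pass, with a median difference of 0.84 and 1 gene, Ifit3, below 0 (-0.03). Bst2, a GPI-anchored virus restriction factor, rose by 3.92 (SE 0.60), Irf7, a regulator of interferon genes, by 3.25 (SE 0.30) and Usp18, which removes ISG15, by 2.88 (SE 0.22). Rtp4 rose by 2.32 (SE 0.27), and Oas2 and Ifit1, sensors of viral RNA, by 1.81 (SE 0.32) and 1.80 (SE 0.20). WT levels stood above background on 1 of 3 arrays for Usp18, Oas2 and Ifit1 and on 2 of 3 for Rtp4. The limma adjusted p was lowest for Usp18 (0.00340) and highest for Oas2 (0.0399). Irf7, Usp18 and Ifit1 were called without any 1 array. The 95% interval of Ly6e reached up to 0.73 and that of Ly6c1 up to -1.001. The count of 16 was 5 without Sfrp1_KO replicate 1, 6 without replicate 2, 10 without WT replicate 2 and 8 without WT replicate 3.

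**Figure D4:**
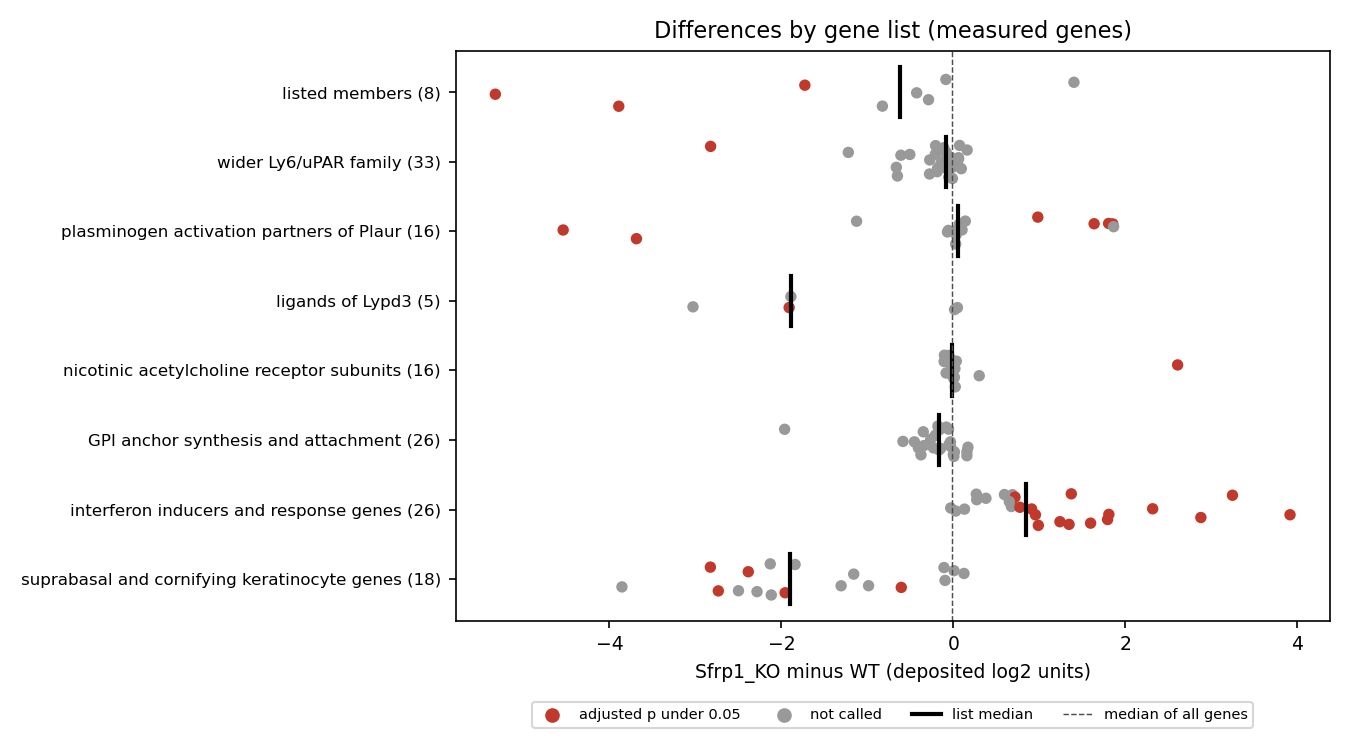
Difference, Sfrp1_KO minus WT in deposited log2 units (horizontal axis), of every measured gene of the 8 lists, with the number of genes in brackets; red marks adjusted p under 0.05, black bars are list medians, and the dashed line is the median of all genes, -0.01. The median was -0.62 for the members, -1.90 for suprabasal genes and 0.84 for interferon-response genes.

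The differences of the 8 members were recomputed under 14 alternatives, of which the filter on dim genes left out Ly6g6c, Ly6k and Slurp1. That filter kept genes above background on at least 3 arrays, which Ly6d met through its WT arrays alone. Lypd3 was called in all but the test without moderation of the variances, Ly6d in all but that test and the fit without Sfrp1_KO replicate 2, and Ly6c1 in 6 of 14. No member was called higher in any of them.

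**Figure D5:**
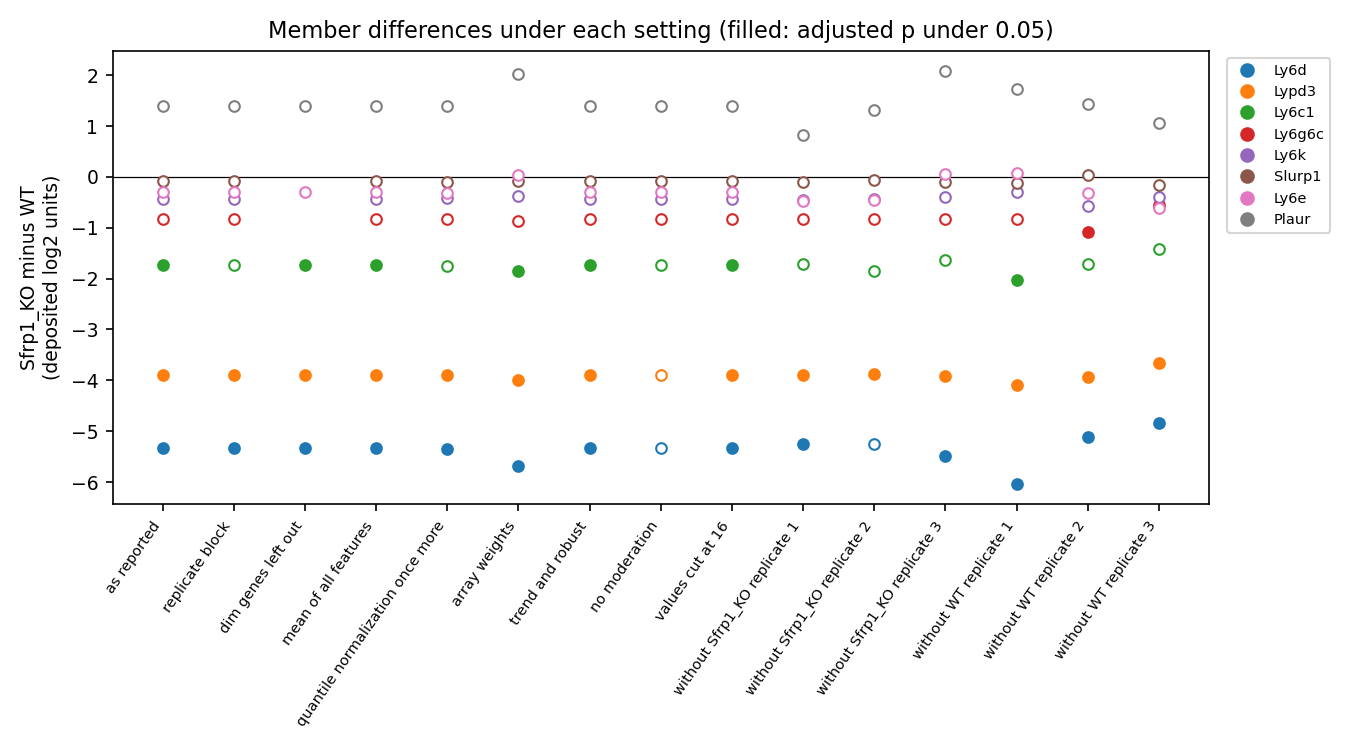
Difference of each member, Sfrp1_KO minus WT in deposited log2 units (vertical axis), as reported and under 14 alternatives (horizontal axis); filled circles have adjusted p under 0.05 and open ones do not. Lypd3 stayed between -4.09 and -3.65 and Ly6d between -6.03 and -4.85, while Ly6e and Slurp1 crossed 0.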

How the data were processed

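The deposited values are log2 signals. The submitters' processing notes name RMA and Affymetrix Expression Console. Software versions and the build behind the annotation were not given in the sources used here. Of 72688 features, 30604 had 1 platform symbol, and symbols were updated by gene ID through RefSeq (GRCm38.p6; 22818 matched). The brightest feature per gene gave 30142 genes, with no filter on dim ones. The 3 Sfrp1_KO and 3 WT arrays were tested gene by gene in limma 3.58.1 (R 4.3.3) with lmFit and eBayes, two-sided. Where all arrays of a genotype were at or under background, "at least" is the other mean minus the mean background level. This bound rests on the means and makes no allowance for the spread between arrays.

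The members and lists were chosen with earlier results of these data known. Named genes were the members, called and brightest wider-family genes, and up to 6 called genes per list, otherwise 2 with the smallest p, and the 3 nearest profiles to Ly6d; markers were named as the cell type checks needed. Plau, Psca, Ly6a2, Ly6g6g, Lamb3, Itgb4, Chrna7, Agr2 and Agr3 were chosen after their values were seen. The test was tried on simulated data made for this comparison over 30142 genes, where 26 of 50 genes changed by 1 unit, 39 of 50 by 2, 49 of 50 by 3 and 47 of 50 by 4 were recovered, with 7 false calls among 168. Alternatives were the replicate block, a filter on dim genes, the mean of all features, quantile normalization once more, array weights, trend and robust options, no moderation, values cut at 16 and each array left out. The number of arrays limits the precision.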

Additional observations from a re-analysis of the deposited data

How the results depend on the processing

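The labels do not say whether equal replicate numbers are pairs, and the arrays were not treated as paired. Deviations from the genotype means correlated across genes at 0.18, -0.12 and 0.17 for equal numbers. For unequal numbers the correlations ran from -0.33 to 0.25. With 3 arrays per genotype these values cannot settle whether the arrays are paired. With the replicate number as a block, 297 genes were higher and 238 lower, against 552 and 437, and 2 members were lower, Ly6c1 being lost (limma adjusted p = 0.0827). The block left 0 of the wider family lower, 0 plasminogen partners lower, 0 Lypd3 ligands lower, 10 interferon-response genes higher and 2 suprabasal genes lower. A test without moderation called 14 genes higher and 21 lower (at an adjusted p under 0.05), and 0 members or genes of the wider family, plasminogen, Lypd3 ligand, interferon and suprabasal lists. Leaving out dim genes gave 2 wider-family genes, 2 Lypd3 ligands and 8 suprabasal genes lower, as did array weights (2, 2 and 8). Some genes, such as Ly6d, Cd59a, Pgap1 and Dsg1a, met the filter on dim genes through WT alone. Their calls under it are no further support. Trend and robust options gave 2 wider-family genes and 2 Lypd3 ligands, repeated quantile normalization 2 Lypd3 ligands, and values cut at 16 units 0 plasminogen partners lower and 0 Lypd3 ligands. Repeated quantile normalization also ended the call of Ly6c1 (limma adjusted p = 0.0705).

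Without 1 array, 191 to 487 genes were higher, 100 to 407 lower and 1 to 3 members lower. The ranges were 0 to 1 wider-family genes lower, 3 to 5 plasminogen partners higher and 0 to 2 lower, 0 to 3 Lypd3 ligands lower, 5 to 16 interferon-response genes higher and 1 to 8 suprabasal genes lower. Differences that turned sign belonged to genes not called: Ly6e (-0.62 to 0.0774, and 0.0475 with array weights), Slurp1 (-0.16 to 0.0296) and Plau (-0.78 to 0.36, and 0.27 with array weights). The cause of these changes was not tested. Genes at or under background have no measured level here.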
